A study of Homo sapiens with 5 samples.

Results

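BNIP3, BNIP3L, FUNDC1, PINK1, MAP1LC3B, GABARAPL1, ULK1, NBR1, CALCOCO2 and TFEB are 10 of the 20162 protein-coding genes searched, and they were taken by name because their products start, carry out or control the removal of mitochondria and other cargo by autophagy. The peaks described are those of Nrf2 and HIF1α that lie in the body of these genes or within 50 kb of it on hg19. They come from BEAS-2B, an immortalized line of human bronchial epithelial cells. All cultures were starved of serum overnight, and were then left without iAs (inorganic trivalent arsenic, the control) or given iAs at 1 μM for 6 h. Chromatin was precipitated with an antibody to Nrf2 or to HIF1α, which gave 4 libraries, namely Nrf2 control, Nrf2 iAs, HIF1α control and HIF1α iAs, with 1 library for each. The study asked where both factors sit in the genome before and after iAs. With no replicate, no difference between conditions could be set against the spread between cultures, and no test was made. The files hold positions and no expression, so the cell line could not be checked against marker genes.

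Autophagy encloses cytoplasm in a double membrane and delivers it to the lysosome. The ULK1 kinase complex starts the process, proteins of the ATG8 family such as LC3B are attached to the growing membrane, and receptors that hold both cargo and ATG8 proteins choose what is enclosed. In mitophagy the cargo is a mitochondrion, marked either by receptors in its outer membrane, as in hypoxia, or by the kinase PINK1 after loss of membrane potential. HIF1α is the oxygen-regulated partner of ARNT and reads the sequence RCGTG. Nrf2 with a small MAF protein reads the antioxidant response element, of which TGACTCAGC is a frequent form that also holds the AP-1 site TGACTCA.

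In the control cells, Nrf2 had a peak in or within 50 kb of 4 of the 10 genes, where 20.0% of all protein-coding genes had one. These were BNIP3, FUNDC1, GABARAPL1 and ULK1. With iAs the count was 5, PINK1 being added, against 35.0% of all genes. HIF1α had a peak at 6 of the 10 in the control (BNIP3L, CALCOCO2, GABARAPL1, MAP1LC3B, NBR1 and ULK1), beside 45.5% of all genes. With iAs it had one at 9 of the 10, all but FUNDC1, beside 68.6%. The genes were of ordinary length for this purpose, with a median span of 24.7 kb against 27.2 kb for all protein-coding genes. The background was not restricted to genes that these cells transcribe.

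Closer to the genes, the factors parted with iAs, as they did over all genes. A peak with at least 1 base within 1 kb of the canonical transcription start site was present for Nrf2 at GABARAPL1 alone, in the control (1 of 10, against 2.33% of all genes) and with iAs (1 of 10, against 5.18%). HIF1α had such a peak at 2 of 10 in the control, BNIP3L and MAP1LC3B, against 16.7%. With iAs it had one at 7 of 10, namely BNIP3, BNIP3L, GABARAPL1, MAP1LC3B, PINK1, TFEB and ULK1, against 42.6%. With the wider 50% of that library's peaks alone the count was 3 (BNIP3, BNIP3L and MAP1LC3B), against 27.4% of all genes. With all peaks, 5 of the 10 genes had a HIF1α peak near the start with iAs and none in the control, where 27.7% of all genes did so. For Nrf2 the count was 0, against 3.05% of all genes.

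**Figure D1:**
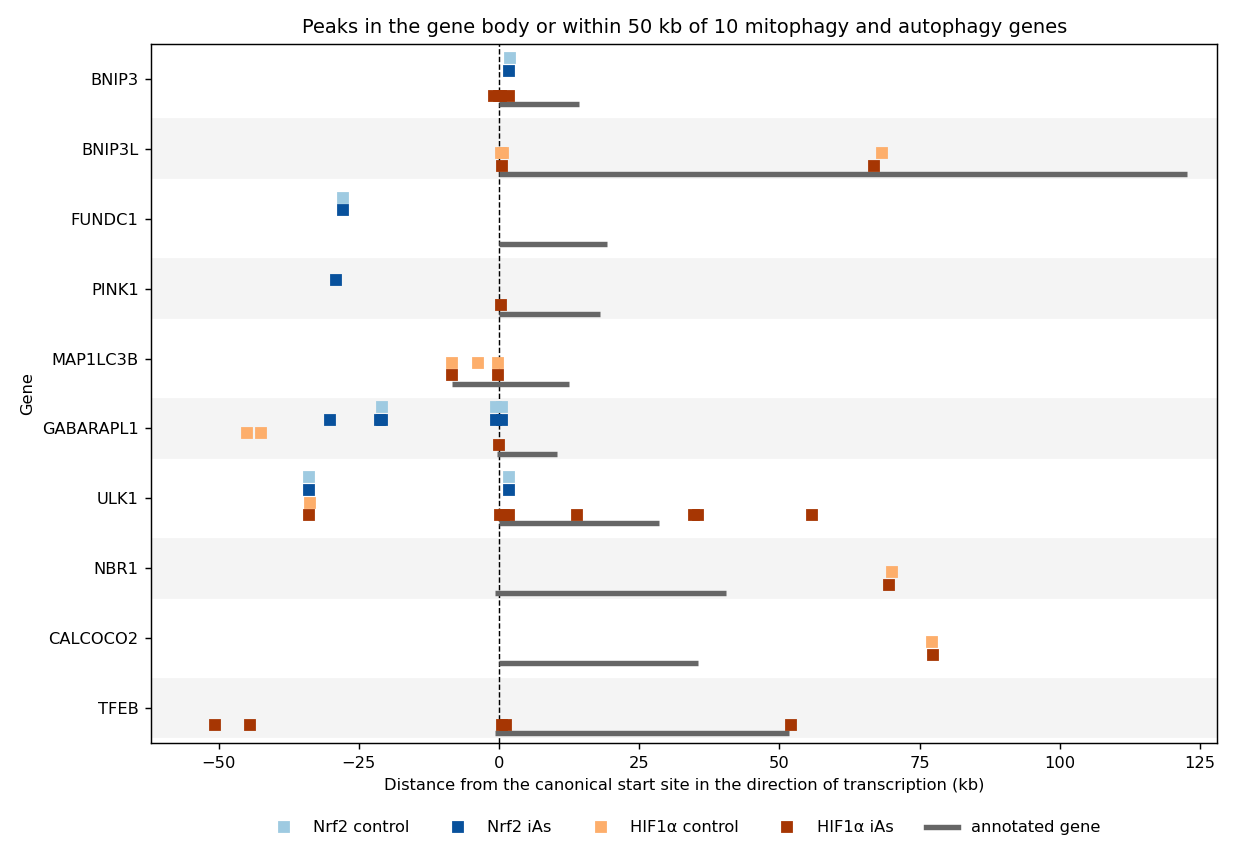
Position of every peak in or within 50 kb of the 10 genes, as the distance of its centre from the canonical start site in kb, with 1 square per peak, 1 colour per library and a grey bar for the annotated gene; 25 of the 53 squares belong to HIF1α with iAs, and squares at the dashed start line are mostly of that library.

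In all, 53 of the 29781 deposited intervals belonged to these genes. Nrf2 had 7 in the control and 10 with iAs, and HIF1α had 11 and 25. The whole libraries grew too, from 3204 to 7743 peaks for Nrf2 and from 6008 to 12826 for HIF1α. By gene, in the order Nrf2 control, Nrf2 iAs, HIF1α control and HIF1α iAs, ULK1 had 2, 2, 1 and 8 peaks, and GABARAPL1 had 3, 5, 2 and 1. ULK1 was thus the gene with the most HIF1α peaks and GABARAPL1 the one with the most Nrf2 peaks. TFEB had 5 peaks, all of HIF1α with iAs. FUNDC1 had 1 Nrf2 peak in each condition and none of HIF1α.

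Not every such interval lay closest to the gene it was assigned to. Of the HIF1α peaks with iAs, 14 of 25 had the start site of the named gene as their nearest protein-coding start and 11 had that of another gene. In the HIF1α control list only 4 of 11 did. For Nrf2 the counts were 5 of 7 in the control and 5 of 10 with iAs. By distance, 3 HIF1α centres lay within 1 kb of the gene's own start in the control and 10 with iAs. For Nrf2 the count was 2 in each condition. None of these counts has a share over all genes beside it. The share of all genes with a HIF1α peak within 1 kb of the start also rose, from 16.7% to 42.6%.

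The mitophagy receptors come first. BNIP3, an outer-membrane receptor that binds LC3 and a well-known hypoxia gene, lies on the minus strand at chr10:133781188-133795471. HIF1α had no peak there in the control, the nearest being at -350 kb from the start site. With iAs it had 4. They were 266 bp wide at -956 bp, 234 bp at -20 bp over the start site itself, 378 bp at +379 bp in intron 1, and 221 bp at +1842 bp in the same intron. All distances are from the canonical start to the peak centre, in the direction of transcription. The peak over the start site was an ordinary one by width, ranking 10056 of 12826 in its library. Nrf2 occupied a single place, at +1863 bp in the control (252 bp) and at +1823 bp with iAs (522 bp). The fourth HIF1α peak lay on this Nrf2 site and overlapped the Nrf2 peaks of both conditions.

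These BNIP3 sequences are shown because they carry the contrast between a start region with HIF1α alone and an intron site with both factors. They are read from hg19 on the gene's strand, 5′ to 3′. Capitals mark matches to ACGTG or GCGTG on either strand that lie inside a peak, and those to the elements TGACTCA or TGACTCAGC. The first, chr10:133795515-133795573, runs from -146 to -88 bp and has 5 matches, of which a pair are the 2 strands of 1 CACGTG. The second, chr10:133793475-133793690 in intron 1, is the 216 bp common to the peaks of Nrf2 control, Nrf2 iAs and HIF1α iAs.
BNIP3 upstream: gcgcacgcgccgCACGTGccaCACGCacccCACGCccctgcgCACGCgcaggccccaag
BNIP3 intron 1: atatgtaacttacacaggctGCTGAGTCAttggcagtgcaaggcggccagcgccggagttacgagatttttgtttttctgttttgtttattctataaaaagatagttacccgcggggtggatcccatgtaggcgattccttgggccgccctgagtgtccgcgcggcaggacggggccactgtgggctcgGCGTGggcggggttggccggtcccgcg

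The intron stretch thus holds both kinds of letters, a complete TGACTCAGC (on the opposite strand, as GCTGAGTCA) and, further along, a GCGTG. A TGACTCAGC within 100 bp of the centre was rare among HIF1α peaks with iAs, at 0.429% of all 12826, and the BNIP3 intron peak was the 1 of 25 near these genes to have it. A match describes the letters in the window and is not a measured contact.

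BNIP3L, also called NIX, is the paralogue of BNIP3 that clears mitochondria from maturing red cells. Nrf2 had no peak near it, the nearest lying at -249 kb from the start in the control and at -117 kb with iAs. HIF1α had 2 small peaks in intron 1 in the control, of 190 bp at +346 bp and 258 bp at +673 bp. With iAs a single peak of 1376 bp at +439 bp covered both of them and the start site. By width it ranked 99 of 12826, and it was the widest peak near any of the 10 genes. It held 10 matches to ACGTG over both strands and 2 to CACGTG, each of which counts on both strands among the 10. None of these matches lay within 100 bp of the peak centre. Both conditions also had a small HIF1α peak deep in the 123 kb annotated span, at +68.3 kb in the control and +66.8 kb with iAs, and these did not overlap.

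FUNDC1, a mitophagy receptor regulated by phosphorylation, lies at chrX:44382885-44402105 on the minus strand. It was the only one of the 10 without a HIF1α peak in either condition. The nearest HIF1α peak lay at +888 kb from its start in the control and at -330 kb with iAs. Nrf2 had 1 peak at -27.9 kb in the control, 399 bp wide, and the same place was taken with iAs by a peak of 641 bp. FUNDC1 was the nearest protein-coding start for both. The stretch chrX:44429952-44429984 is shown since its TGACTCAGC (capitals) lay 4 bp from the centre of the control peak. It is written on the strand of FUNDC1.
FUNDC1 upstream: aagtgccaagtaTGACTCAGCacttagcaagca

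PINK1, the kinase that marks damaged mitochondria for removal, lies at chr1:20959951-20978004 on the plus strand. No library of the control had a peak near it. The nearest control peaks lay at +389 kb for Nrf2 and +543 kb for HIF1α. With iAs each factor had 1 peak. That of HIF1α was 230 bp wide at +334 bp in exon 1, and that of Nrf2 was 208 bp wide at -29.1 kb, where CDA was the nearer start. Both were narrow for their libraries, at ranks of 10235 of 12826 and 6602 of 7743. The HIF1α peak had neither ACGTG nor GCGTG in its interval.

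**Figure D2:**
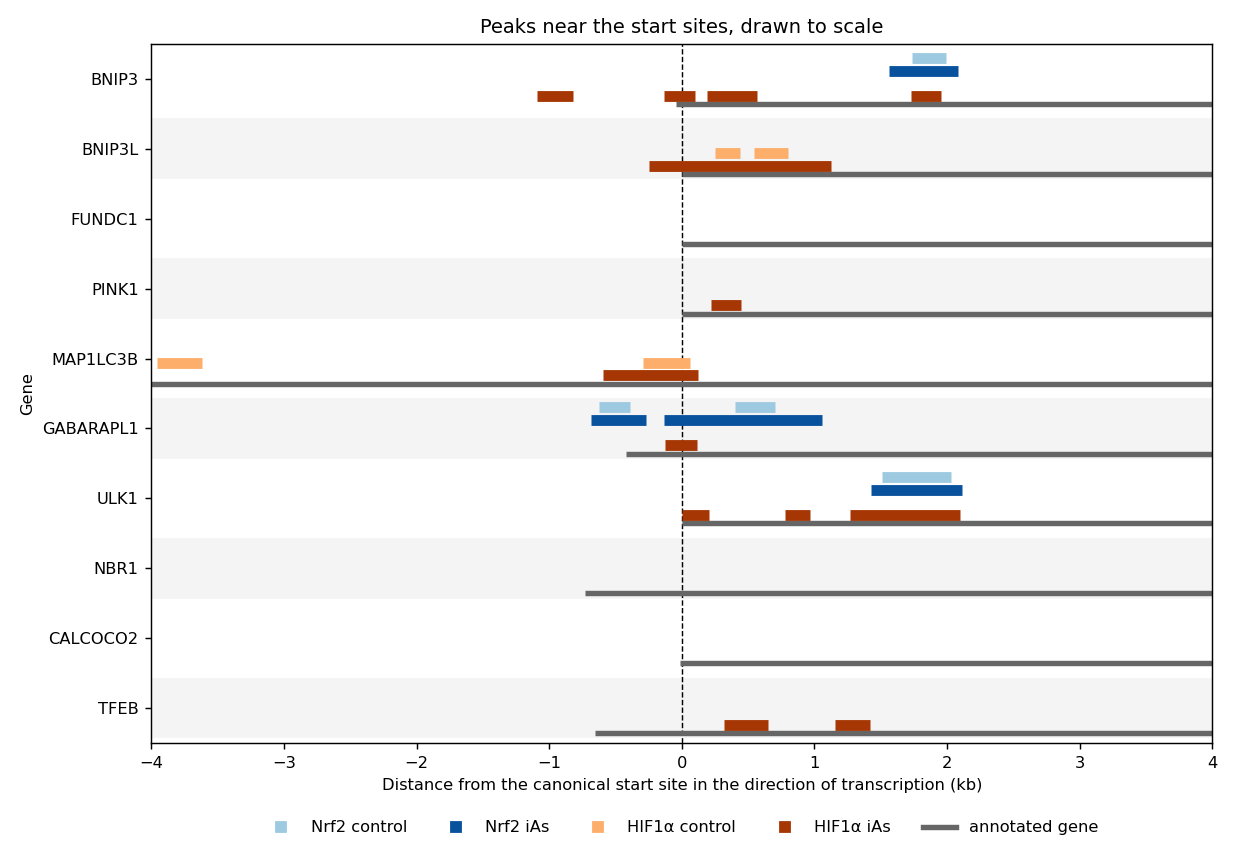
Peaks within 4 kb of the canonical start site of each of the 10 genes, drawn to scale as bars in kb from the start in the direction of transcription, with 1 colour per library and grey for the annotated gene; HIF1α iAs bars lie at the start of 7 genes, while the Nrf2 bars of BNIP3 and ULK1 lie more than 1 kb inside the gene.

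The ATG8 family had 2 of the 10 genes, and they differed in which factor was at the start in the control. MAP1LC3B encodes LC3B, the most used marker of autophagosomes, and lies at chr16:87417559-87438385 on the plus strand. HIF1α had a peak over its start in both conditions, of 351 bp at -116 bp in the control and 716 bp at -235 bp with iAs. A second shared peak lay at -8.31 kb, at the start of FBXO31 and also over the 5′ end of the annotated MAP1LC3B span. It was 205 bp wide in the control and 318 bp with iAs. One more, of 343 bp at -3.79 kb, was present in the control alone. MAP1LC3B was the only one of the 10 with HIF1α over its canonical start site in both conditions. Nrf2 had no peak within 50 kb of it. The HIF1α peak with iAs held 6 matches to GCGTG, 4 of which lay in the control peak too. The other 2 lay in the part of the interval added with iAs, chr16:87425364-87425392, and are shown in capitals (as CACGC, the opposite strand).
MAP1LC3B upstream: cggacCACGCgcgcccctgCACGCagagg

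GABARAPL1, an ATG8 protein of the GABARAP branch, lies at chr12:10365057-10375727 on the plus strand. Nrf2 flanked its start in the control, with peaks of 235 bp at -505 bp and 299 bp at +550 bp in intron 1. With iAs these were 416 bp at -478 bp and 1197 bp at +462 bp, the latter wide enough to cover the start site. The wider peak ranked 317 of 7743, and no other Nrf2 peak near the 10 genes was as wide. A further Nrf2 site at -20.9 kb was 1 peak of 564 bp in the control and was split into 401 bp and 408 bp with iAs. Another, of 193 bp at -30.1 kb, was present with iAs alone.

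HIF1α behaved differently at GABARAPL1. In the control its peaks lay at -45.0 and -42.4 kb and were 218 and 251 bp wide, with OLR1 as the nearer start, and neither was overlapped with iAs. With iAs its single peak, 238 bp wide, was centred 8 bp before the start site and overlapped the wide Nrf2 peak. The Nrf2 peaks of GABARAPL1 are shown by their sites because each control peak held a TGACTCA. The sites are chr12:10344613-10344643 and chr12:10344702-10344732 in the distal peak, chr12:10364955-10364988 at -505 bp, and chr12:10366063-10366091 in intron 1. Capitals mark TGACTCA or TGACTCAGC on either strand, and in the third a CACGC that shares 2 bases with it. All are on the gene's strand.
GABARAPL1 distal 1: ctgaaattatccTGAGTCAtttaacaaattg
GABARAPL1 distal 2: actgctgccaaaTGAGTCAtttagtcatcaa
GABARAPL1 proximal: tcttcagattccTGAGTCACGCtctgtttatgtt
GABARAPL1 intron 1: ccgtcttcagTGACTCAGCaacccacaca

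Among these 4, only the intron site had the full TGACTCAGC. With iAs the same 4 sites lay inside Nrf2 peaks again, both distal ones within the 408 bp peak. The HIF1α peak at the start had neither ACGTG nor GCGTG.

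ULK1, the kinase that starts autophagosome formation, lies at chr12:132379167-132407695 on the plus strand and had the most peaks of the 10 genes. A site at -33.8 kb was occupied in all 4 libraries. It was 350 bp wide for Nrf2 in the control, 514 bp for Nrf2 with iAs, 237 bp for HIF1α in the control and 216 bp for HIF1α with iAs. It was the only place near the 10 genes with a peak in every library, though MMP17 was slightly the nearer start. Nrf2 had 1 further peak in each condition, centred at +1769 bp in intron 3, of 524 bp in the control and 686 bp with iAs.

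The gene itself had no HIF1α peak in the control. With iAs, HIF1α had 4 in the gene. They were 206 bp at +103 bp in exon 1, 188 bp at +874 bp in intron 1, 832 bp at +1685 bp on the Nrf2 site of intron 3, and 329 bp at +13954 bp in intron 5. The 832 bp peak was the widest of these, at rank 843 of 12826, and overlapped the Nrf2 peaks of both conditions. A further 3 HIF1α peaks with iAs lay downstream, 327 and 349 bp wide near the start of PUS1 and 501 bp near that of EP400. The first sequence shown, chr12:132345378-132345476, is the 99 bp common to all 4 libraries, printed because none of the motifs searched matched in it. The second, chr12:132380118-132380146 in intron 1, has the only ACGTG (capitals, as CACGT) in the HIF1α peaks within 1 kb of this start.
ULK1 upstream: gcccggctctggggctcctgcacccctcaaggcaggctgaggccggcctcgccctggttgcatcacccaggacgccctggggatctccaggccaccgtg
ULK1 intron 1: gccttgaaggtgCACGTttggctttcaga

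The cargo receptors NBR1 and CALCOCO2 (NDP52) had peaks only at a distance. NBR1, which lies at chr17:41322498-41363708 and carries ubiquitin-tagged cargo to LC3, had 1 HIF1α peak in each condition, of 206 bp at +70.0 kb in the control and 191 bp at +69.5 kb with iAs. They did not overlap, and TMEM106A was the nearer start. CALCOCO2, at chr17:46908380-46943884, binds ubiquitin-coated bacteria and mitochondria. Its HIF1α peak lay at the start of UBE2Z, 77.3 kb from its own, and was 560 bp in the control and 495 bp with iAs. Neither gene had an Nrf2 peak within 50 kb, nor a peak of any library within 1 kb of its start.

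TFEB, the transcription factor that switches on lysosomal and autophagy genes, lies at chr6:41651716-41703997 on the minus strand. It had no peak in 3 of the libraries, the nearest being at -182 kb for Nrf2 in both conditions and at +154 kb for HIF1α in the control. With iAs, HIF1α had peaks of 334 bp at +482 bp and 266 bp at +1288 bp, both in intron 1. The other 3 lay far off, with 270 bp at +52.0 kb just past the end of the gene, 189 bp at -44.4 kb at the start of FRS3, and 188 bp at -50.7 kb with TOMM6 as the nearer start. The peak at +482 bp had 2 matches to GCGTG. One of them, chr6:41702890-41702918, is shown on the gene's strand with the match in capitals.
TFEB intron 1: cgggcgcccagcGCGTGgcccgagcggcg

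Over the whole set of HIF1α peaks with iAs within 1 kb of a start, 7 of 10 had ACGTG or GCGTG somewhere in the interval and 3 did not, those of PINK1, GABARAPL1 and the ULK1 exon. At the level of genes, 5 of the 7 had a match. Among all HIF1α peaks with iAs, near a start or not, 71.6% had ACGTG or GCGTG somewhere in the interval. Within 100 bp of the centre, ACGTG or GCGTG was found in 15 of the 25 HIF1α peaks with iAs (60%, against 52.4% of all such peaks of the library) and in 5 of 11 in the control (45.5% against 47.7%). TGACTCAGC was found in 2 of 7 Nrf2 peaks in the control (28.6% against 23.8%) and 2 of 10 with iAs (20.0% against 15.6%). The shorter TGACTCA was found in 4 of 7 (57.1% against 47.8%) and 5 of 10 (50% against 38.3%). The looser TGACNNNGC, with any base at N, was found in 2 of 7 (28.6% against 42.4%) and 3 of 10 (30% against 31.6%), and CACGTG in 1 of 25 HIF1α peaks with iAs (4.0% against 5.79%). Somewhere in the interval, TGACNNNGC was found in 5 of 7 (71.4% against 51.3%) and 6 of 10 (60% against 44.2%). Whether its share lay below or above that of the library thus depended on the stretch searched. Both strands were searched. TGACTCA lies within TGACTCAGC, which is a form of TGACNNNGC, and ACGTG lies within CACGTG.

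How far the 2 conditions shared places differed between the factors. Of the Nrf2 peaks with iAs, 2 of 10 overlapped no Nrf2 control peak (20.0%, Wilson 95% interval 5.67 to 51.0), against 62% of all Nrf2 peaks with iAs. They were the distal peaks of PINK1 and GABARAPL1, so 2 of the 10 genes had an Nrf2 peak with iAs away from any control peak, beside 25.4% of all genes. All 7 Nrf2 control peaks were overlapped by a peak with iAs, and in the whole library only 172 of 3204 (5.37%) were not. Of the HIF1α peaks with iAs, 20 of 25 overlapped no control peak (80.0%, 60.9 to 91.1), against 75.2% of the library. Those peaks fell at 7 of the 10 genes (BNIP3, BNIP3L, GABARAPL1, NBR1, PINK1, TFEB and ULK1), beside 59.6% of all genes. In the other direction 5 of 11 HIF1α control peaks were not overlapped with iAs (45.5%, 21.3 to 72.0), against 46.3% of the library. Intervals here cover counting error only, and several peaks share 1 gene. The Nrf2 share varied with the rule but stayed inside its wide interval. It was 5 of 10 (against 74.9% of the library) where each peak had to cover 50% of the other, and 3 of 8 (37.5% against 61%) with the wider 50% of peaks. Under the first of these rules the HIF1α share was 23 of 25 (92.0% against 85.3%), just outside its interval.

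Where peaks of both conditions overlapped, that with iAs was the wider in 6 of 8 Nrf2 pairs, with a median width ratio of 1.54, and in 4 of 6 HIF1α pairs, with a median of 1.80. Over all overlapping pairs of the libraries, that with iAs was the wider in 2794 of 3039 Nrf2 pairs. For HIF1α it was the wider in 2501 of 3254. The median ratios of all these pairs were 1.67 for Nrf2 and 1.47 for HIF1α. The largest ratios were 7.24 and 5.33 at BNIP3L, whose pairs share 1 peak with iAs, and 4.0 at GABARAPL1 intron 1. Ratios under 1 were those of the split distal GABARAPL1 site (0.711 and 0.723), of ULK1 upstream for HIF1α (0.911) and of CALCOCO2 (0.884). Width depends on calling as well as on signal, and the files give no height to set beside it. Against their own libraries the Nrf2 peaks ranked among the wider, at a median of the top 39.5% in the control and 31.9% with iAs, and the HIF1α peaks among the narrower, at 66.5% and 68.1%.

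**Figure D3:**
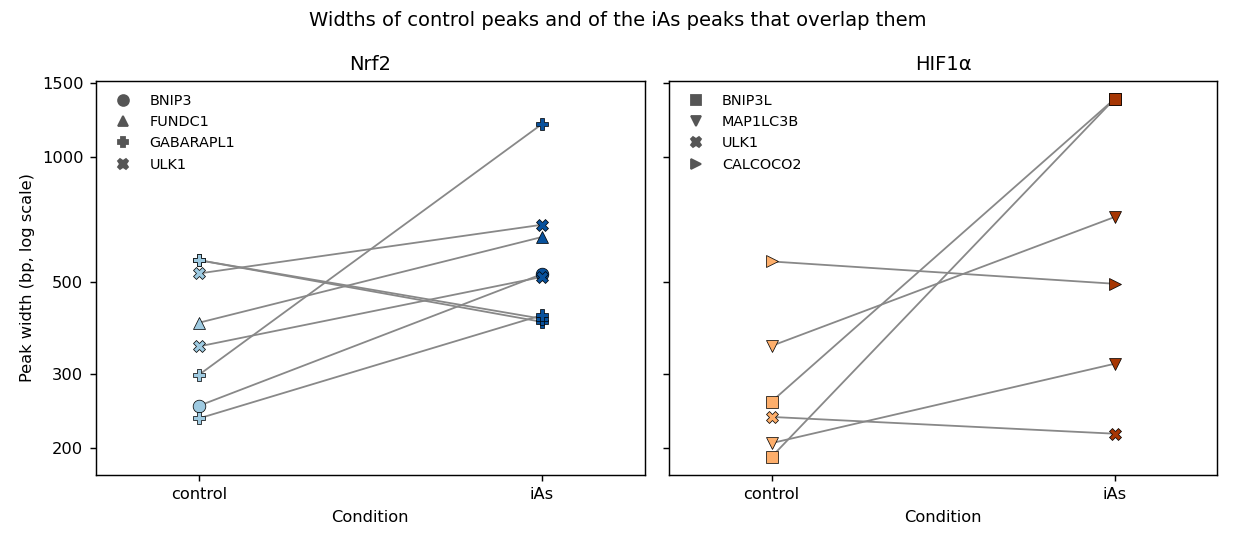
Width in bp, on a log scale, of each control peak (left of each panel) joined to the iAs peak that overlapped it, for Nrf2 and HIF1α, with 1 marker shape per gene; lines rise for 6 of 8 Nrf2 pairs and 4 of 6 HIF1α pairs, the steepest ending at the 1376 bp BNIP3L peak. Over the whole libraries the iAs peak was the wider in 2794 of 3039 Nrf2 pairs and 2501 of 3254 HIF1α pairs.

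With iAs, 4 places had overlapping peaks of both factors, and 1 did where each peak had to cover 50% of the other. Of the HIF1α peaks with iAs, 4 of 25 overlapped an Nrf2 peak with iAs (16.0%, 6.40 to 34.7), against 8.95% of the library. They were those of BNIP3 intron 1, the GABARAPL1 start, ULK1 intron 3 and ULK1 upstream. Seen from Nrf2, 4 of its 10 peaks with iAs were shared (40.0%, 16.8 to 68.7), against 14.7%. In the control only the upstream ULK1 place was shared, with no share over all control peaks to set beside it. Both factors had more peaks with iAs in the whole libraries, so the shared counts of the conditions were not compared.

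The 62 other genes of the pathway, listed by role, were searched in the same way. A peak in or within 50 kb was present for Nrf2 at 20 (32.3%) in the control and 29 (46.8%) with iAs, and for HIF1α at 37 (59.7%) and 53 (85.5%). Near the start the counts were 2 (3.23%) and 5 (8.06%) for Nrf2, and 21 (33.9%) and 49 (79.0%) for HIF1α. HIF1α had a peak near the start with iAs and none in the control at 29 of the 62 (46.8%), against 5 of the 10 genes above. By both measures the shares of the 10 genes and of the 62 lay above that of all genes in each library, and no test was made of it. Near the start, that of the 10 rested on 1 gene in each Nrf2 library and 2 in the HIF1α control. With the wider 50% of peaks, 0 and 1 of the 10 had a near-start Nrf2 peak in control and iAs, against 1.49% and 2.77% of all genes. For HIF1α these were 1 and 3 of 10, against 9.86% and 27.4%.

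**Figure D4:**
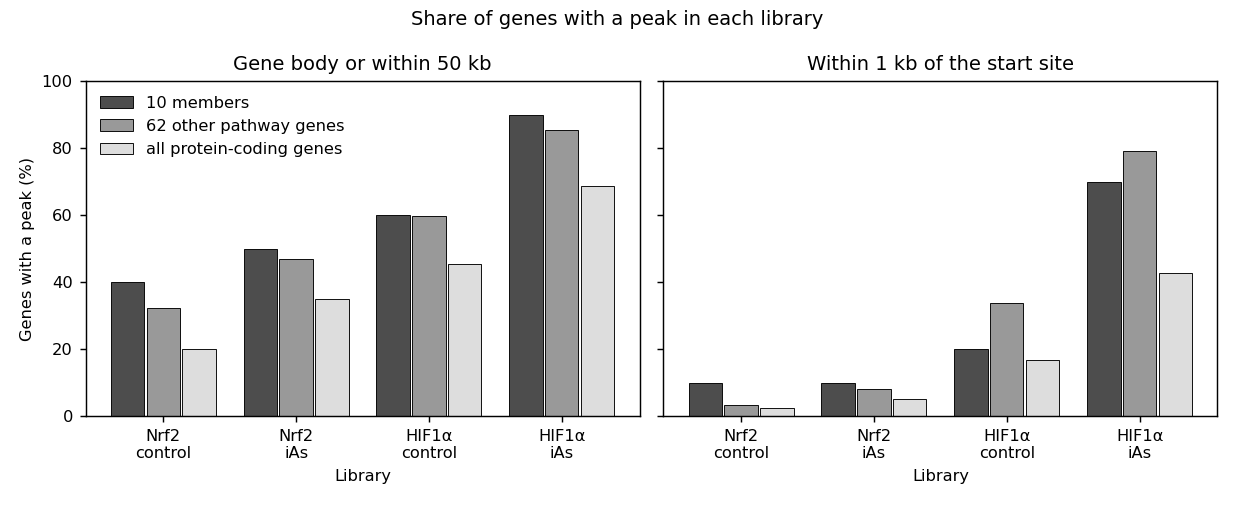
Percent of genes with a peak in the gene body or within 50 kb (left) and within 1 kb of the canonical start site (right) in each library, for the 10 genes, the 62 other pathway genes and all 20162 protein-coding genes; the bars of all genes are the lowest in each library, and those of HIF1α iAs the highest.

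By role, and beside 42.6% of all genes with iAs and 16.7% in the control, HIF1α with iAs was near the start of all 9 genes listed under mitophagy control, where the control had 2, and of all 4 other genes of the initiation complex, where the control had 2. It was near 9 of 10 conjugation genes (5 in the control), which attach ATG8 proteins to lipid. The counts were 7 of 10 receptors (3 in the control), 6 of 8 membrane-source genes (2), 4 of 6 lipid kinase genes (1), 3 of 4 further ATG8 genes (2) and all 3 further transcription factors (1). The lowest was 4 of 8 for fusion and lysosome genes, where the control had 3.

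**Figure D5:**
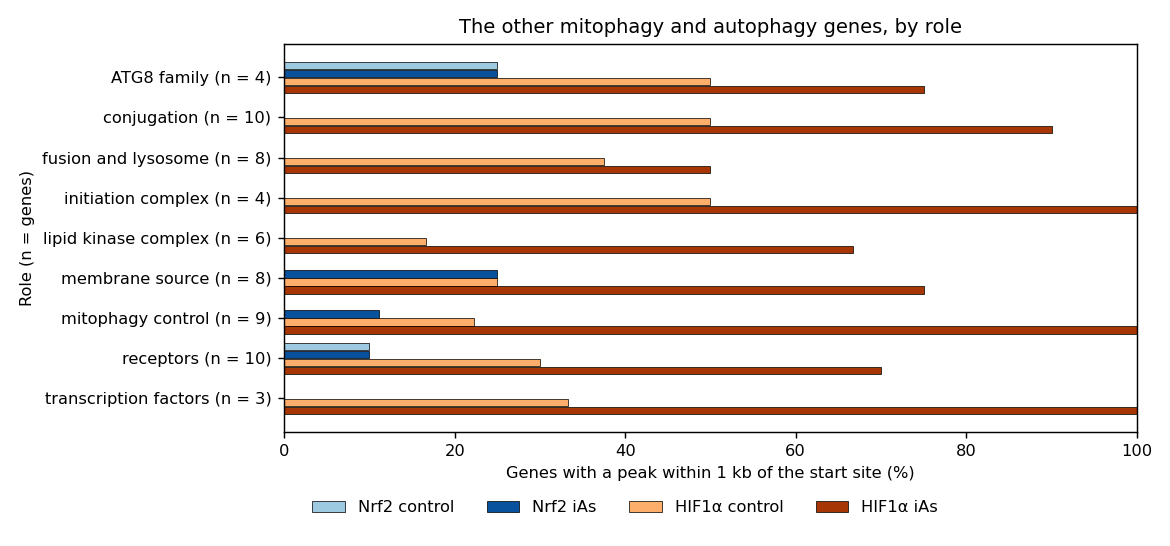
Percent of the 62 other pathway genes with a peak within 1 kb of the canonical start site, by role and library, with the number of genes in brackets and no bar where it is 0; the HIF1α iAs bar is the longest in each role and reaches 100% for the initiation complex, mitophagy control and transcription factors.

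Of the other genes, those with the widest HIF1α peaks near the start with iAs were FOXO3, a transcription factor that acts on autophagy genes (1408 bp, with no control peak), ATG12 (1355 bp, nearer to the start of AP3S1, and 203 bp in the control), SQSTM1 (1189 bp and 374 bp), the late endosome GTPase RAB7A (892 bp and 349 bp) and MAP1LC3A (840 bp and 486 bp). BNIP3L, at 1376 bp, stood between the first and the next of these. The widest Nrf2 peaks with iAs were those of SQSTM1, ULK2, ATG9A and TFE3. SQSTM1 encodes p62, the cargo receptor that also holds Keap1, and its Nrf2 peak at -1.06 kb was 2447 bp wide, at rank 17 of 7743. In the control it was 1985 bp, the widest of all 3204. No Nrf2 peak near the 10 genes came close, the widest being the 1197 bp of GABARAPL1. The peaks of ULK2 (2165 bp) and ATG9A (1714 bp) lay nearer to ALDH3A1 and ABCB6, and that of TFE3 (1629 bp), a relative of TFEB, in its intron 2, from where it was also counted for WDR45. TFEB itself had no Nrf2 peak within 50 kb.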

How the data were processed

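ChIP-seq was done on BEAS-2B cells with antibodies to Nrf2 and HIF1α, without and with iAs, with 1 library per antibody and condition. An input library was not used here. The authors aligned the reads to hg19 with BWA, down-sampled tags within a group to the smallest sample, and called peaks with MACS or SICER (the submitters' processing notes list MACS2 2.1.0). The deposited values are base positions of intervals on hg19, without heights or scores, so read depth is unknown here and peaks could be compared by place and width alone. Their merged list of 21088 regions was not used. Starts were made 1-based. Genes, canonical transcripts and basic transcripts came from GENCODE release 44 on GRCh37, the same assembly, and sequences from its genome. Overlap needed 1 bp. Motif windows ran 100 bp to each side of the centre. The members and lists were chosen with earlier results of these data known. All 10 genes are described, and of the 62 others, the 5 with the widest peak near the start (HIF1α iAs), the 5 with the widest within 50 kb (Nrf2 iAs) and SQSTM1 are named. Alternatives were distances of 10 kb or none, 2 kb around the start, any basic transcript start, the wider 50% of peaks, a reciprocal overlap of 50%, a gap of 1 kb, merging within 500 bp and whole-interval motifs. Python 3.11.15, NumPy 2.4.6 and SciPy 1.17.1 were used, and counts were checked on simulated data.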

Additional observations from a re-analysis of the deposited data

Results flagged for a closer look

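At GABARAPL1 the number of peaks in or within 50 kb of the gene moved in opposite directions for the factors, with iAs minus control at 2 for Nrf2 and -1 for HIF1α. The Nrf2 gain depended on how intervals were split, since the 564 bp control peak was overlapped by peaks of 401 and 408 bp with iAs. With intervals under 500 bp apart merged, the Nrf2 peaks of all 10 genes were 7 in the control and 8 with iAs, down from 10. The Nrf2 intervals so merged were all at GABARAPL1. The difference was not tested, because each group is 1 library. The HIF1α control peaks were distal and nearer to OLR1, and the peak present with iAs was at the start site of GABARAPL1.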

How the results depend on the processing

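Of 69 alternatives 34 moved a count by over 1.5 times or a share out of its Wilson interval, and 35 did not. Within 10 kb in place of 50 kb, the genes with a peak were 3 for Nrf2 iAs and 2 for HIF1α control, the peaks were 4, 4 and 6 for Nrf2 control, Nrf2 iAs and HIF1α control, and the other pathway genes were 11 and 17 for Nrf2 control and iAs. In the gene body alone the genes were again 3 and 2, the peaks 4, 4, 6 and 15 in the 4 libraries, and the other pathway genes 8, 14 and 19 in Nrf2 control, Nrf2 iAs and HIF1α control. With the wider 50% of peaks, the genes with a peak were 2 for HIF1α control and 5 for HIF1α iAs, and the peaks 4, 3 and 7 for Nrf2 control, HIF1α control and HIF1α iAs. Genes with a peak near the start were then 0, 1 and 3 in these 3 libraries, and peaks nearest to their own gene's start 2, 2 and 4. Other pathway genes were then 12 for Nrf2 control and 24 for HIF1α control, and 1 HIF1α iAs peak overlapped Nrf2. Within 2 kb of the start, 3 genes had an Nrf2 peak in each condition, while HIF1α stayed at 2 in the control and 7 with iAs. The counts at 10 kb, in the gene body, at 2 kb and for wider peaks within 50 kb have no share of all genes beside them. They show how a count depends on the rule and do not compare these genes with others. With a reciprocal overlap of 50%, 92.0% of the HIF1α iAs peaks had no control peak, against 85.3% of the library, and 1 overlapped an Nrf2 iAs peak. For Nrf2 iAs, whose interval is wide, 50% had no control peak under that rule, against 74.9% of the library. With the wider 50% of peaks the Nrf2 iAs share was 37.5%, against 61%. Any basic transcript start, a gap of 1 kb and merging moved no value beyond these limits. Nor did whole intervals for TGACTCAGC and for ACGTG or GCGTG, the only motifs among the 69 alternatives. Outside those alternatives, whole intervals raised TGACNNNGC to 5 of 7 and 6 of 10 Nrf2 peaks in control and iAs. The shares of the whole libraries were then 51.3% and 44.2%, below those of these peaks, where in the window they were above. Whole intervals raised CACGTG to 3 of 25 HIF1α peaks with iAs, beside 11.5% of the library. No paired analysis was possible because each group has 1 library. The lack of replicates, heights and read depth limits every comparison, and the HIF1α near-start count in particular rests on narrow peaks.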
